A study of Mus musculus with 12 samples.

Results

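Rpph1, Rmrp, Rny3 and Vaultrc5 are 4 short noncoding RNAs made by RNA polymerase III (pol III), and they were followed here through the liver of Maf1-/- and WT mice. They were taken by symbol as 4 of the 13304 rows of the table of RNA-seq values per library. They were set beside their own loci in a second table, which scores 671 pol III loci with 1 value per genotype. These scores are labelled as liver RNA-seq scores, not as pol III occupancy. Livers came from 5 Maf1-/- and 7 WT mice of the C57Bl/6J strain, all aged 12 to 14 weeks, fed chow, fasted overnight and refed for 4 h, with 1 library of total RNA per liver. The 4 genes were chosen by symbol with their log2 values in these same libraries in view, so their difference between genotypes is given as a description, without a test.

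Pol III makes short RNAs such as tRNAs and 5S rRNA, and MAF1 is a repressor of this polymerase. At most pol III genes, tRNA and vault RNA genes among them, the promoter lies inside the transcribed part (type 2) and is read by TFIIIC. The genes for RNase P RNA, RNase MRP RNA and the Y RNAs instead have a promoter upstream of the start (type 3), with a proximal sequence element bound by SNAPc and a TATA box. Transcription ends at a run of T. Rpph1 is the RNA of RNase P, which cuts the 5′ leader from precursor tRNAs, Rmrp is the RNA of RNase MRP, which acts in ribosomal RNA maturation, Rny3 is a Y RNA bound by the Ro60 and La proteins, and Vaultrc5 is the vault RNA of the vault particle.

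Each of the 4 is a single small gene. In the mm9 build, which the score table uses, Rpph1 lies at chr14:51427123-51427447 on the minus strand, Rmrp at chr4:43505660-43505930 on the minus strand and Rny3 at chr6:47731623-47731724 on the plus strand. Rpph1 spans 325 bases with a GC content of 66.8%, Rmrp 271 bases with 64.2%, Rny3 102 bases with 45.1% and Vaultrc5 143 bases with 53.8%. The gene annotation gives Rpph1 319 bases with 67.1%, used below for levels per length and genes of like GC content, and the others the same span. For each, 3 stretches of 50 bases, from its start, middle and end, occurred once in the mm9 genome as exact matches. Copies with mismatches were not searched for. The 100 bases before the start are shown because the promoter type is what separates these genes from tRNA genes, with ACCNTAA (letters found in the proximal element) and TATAA in capitals.

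Rpph1: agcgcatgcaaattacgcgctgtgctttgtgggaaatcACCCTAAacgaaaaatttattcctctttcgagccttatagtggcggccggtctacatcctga

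Rmrp: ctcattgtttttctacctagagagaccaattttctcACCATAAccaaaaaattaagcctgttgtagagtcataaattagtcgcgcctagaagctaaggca

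Rny3: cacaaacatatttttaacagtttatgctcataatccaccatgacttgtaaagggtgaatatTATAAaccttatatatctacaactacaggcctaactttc

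ACCNTAA began at position -62 before Rpph1 and at -64 before Rmrp, counted from the start in the score table. It was not found on either strand before Rny3 or Vaultrc5. TATAA stood at -39 before Rny3 on the strand of the gene. On the opposite strand its letters first began at -40 before Rny3, overlapping the match at -39, and at -28 before Rpph1. A further opposite-strand match lies nearer the start of Rny3, in the ttata shown shortly after the capitals. Of 32851 mouse RefSeq promoters (GRCm38.p6) read over the same length, 2.02% held ACCNTAA and 10.2% held TATAA on either strand. These matches describe letters and do not show binding.

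The RNAs themselves follow for Rmrp and Rny3, whose annotated length fits in 1 run, because their difference in length and GC content bears on the values below.

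Rmrp: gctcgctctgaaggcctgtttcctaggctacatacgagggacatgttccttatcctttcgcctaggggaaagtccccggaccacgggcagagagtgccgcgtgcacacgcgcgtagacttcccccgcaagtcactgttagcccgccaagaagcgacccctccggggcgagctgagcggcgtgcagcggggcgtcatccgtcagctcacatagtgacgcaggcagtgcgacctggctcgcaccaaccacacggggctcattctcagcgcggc

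Rny3: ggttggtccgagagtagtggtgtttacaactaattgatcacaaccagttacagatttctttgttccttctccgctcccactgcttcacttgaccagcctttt

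The ends of the genes are shown for the terminator, with runs of 4 or more T in capitals. They are the last 20 bases of the gene as placed in the score table and the 30 bases that follow.

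Rpph1: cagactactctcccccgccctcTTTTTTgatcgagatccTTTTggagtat

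Rmrp: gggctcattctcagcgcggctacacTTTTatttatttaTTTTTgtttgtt

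Rny3: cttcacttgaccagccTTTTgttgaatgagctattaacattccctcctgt

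The first run of T began 3 bases after the end of Rpph1 in the score table and 6 bases after that of Rmrp, and formed the last 4 bases of Rny3. No run of 4 T lay further inside any of the 4 RNAs.

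Reads in listed genes ran between 34709661 and 41931441 in the Maf1-/- libraries and between 35003720 and 55787438 in the WT libraries. Maf1 itself had 5 to 52 reads in Maf1-/- and 254 to 534 reads in WT libraries, in the direction of the labels. The summed level of 6 hepatocyte markers was 98252 to 133053 CPM (reads per 1000000 of the scaled library size) in Maf1-/- and 91288 to 120589 in WT livers. That of 4 stellate cell markers was 450 to 695 in Maf1-/- and 367 to 561 in WT livers, with medians of 620 in Maf1-/- and 397 in WT. That of 4 cholangiocyte markers was 3.43 to 9.92 (median 3.75) in Maf1-/- and 5.35 to 9.35 (median 6.66) in WT livers. That of the 2 measured lymphocyte markers was 27.7 to 49.99 in Maf1-/- and 19.5 to 37.4 in WT livers. Kupffer cell markers summed to 182 to 275 in Maf1-/- and 174 to 330 in WT livers, and endothelial cell markers to 280 to 366 in Maf1-/- and 297 to 347 in WT. The median log2 fold change was negative, as for the 4 RNAs, for cholangiocyte (-0.52), lymphocyte (-0.19) and Kupffer cell (-0.12) markers. It was positive for stellate cell (0.25), hepatocyte (0.06) and endothelial cell (0.05) markers. The part of these cell types in the results was not tested. The libraries differed in how level depends on GC content. This GC slope is the change of the log2 value, relative to the mean of all libraries, per 10 points of GC, and it ran between -0.54 and 0.08 in Maf1-/- libraries and between -0.57 and 0.35 in WT libraries. WT 2 stood apart at a slope of -0.57, since the remaining WT slopes were 0.14 to 0.35, and results that rest on it are given with and without it.

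Rpph1 had the largest difference between genotypes of the 4. Maf1-/- libraries 1 to 5 held 5926, 6673, 1374, 2136 and 3552 Rpph1 reads, against a lowest, median and highest count of 2177, 15686 and 31792 in WT libraries. On the scale of the table, log2 CPM, Rpph1 was at 7.19, 7.43, 5.20, 5.86 and 6.68 in Maf1-/- livers, and at 5.73 (lowest), 8.55 (median) and 9.28 (highest) in WT livers. The lowest WT value was that of WT 2, and the other WT libraries, at 7.59 to 9.28, all lay above every Maf1-/- library; with WT 2 left out, 8.22% of all genes were lower in Maf1-/- without overlap. The means were 6.47 ± 0.93 in Maf1-/- (SD, n = 5) and 8.13 ± 1.17 in WT (SD, n = 7), a log2 difference of -1.66 ± 0.57 (SE), or 3.15-fold lower in Maf1-/-. In whole liver, fewer cells of a type and less RNA per cell cannot be told apart. Without WT 2 the difference was -2.06. Rpph1 ranked 34 of 13304 from the most negative log2 fold change, Vaultrc5 559, Rny3 970 and Rmrp 1329, and 52.9% of all genes were below 0. The 4 were chosen with these values in view, so the ranks are a description.

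Rmrp overlapped between genotypes. Its counts were 14126, 11027, 2339, 3443 and 7801 reads in Maf1-/- libraries 1 to 5, against 2345 (lowest), 12268 (median) and 33948 (highest) in WT libraries. The log2 values averaged 7.39 ± 1.07 in Maf1-/- (SD, n = 5) and 7.94 ± 1.17 in WT (SD, n = 7), with a difference of -0.55 ± 0.59 (SE), which is smaller than its own standard error. In 3 of 5 Maf1-/- libraries Rmrp was below the WT median. Rmrp shares bases with the first part of Ccdc107, a protein-coding gene on the opposite strand. The kit keeps the strand of the RNA, but the strand setting of the counting is not given in the sources used here, so reads of this shared part cannot be told apart.

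Rny3 and Vaultrc5 had fewer reads. Rny3 had 94, 171, 43, 37 and 43 reads in Maf1-/- libraries 1 to 5, against 46 (lowest), 103 (median) and 273 (highest) in WT libraries. Its log2 values averaged 0.79 ± 0.89 in Maf1-/- (SD, n = 5) and 1.43 ± 0.59 in WT (SD, n = 7), a difference of -0.63 ± 0.38 (SE). The groups overlapped, and Maf1-/- library 2, at 2.15, was above all WT libraries but WT 1, at 2.42. Vaultrc5 had 45, 63, 16, 15 and 23 reads in Maf1-/- libraries 1 to 5, against 19 (lowest), 75 (median) and 100 (highest) in WT libraries. Its log2 values averaged -0.42 ± 0.85 in Maf1-/- (SD, n = 5) and 0.36 ± 0.87 in WT (SD, n = 7), a difference of -0.78 ± 0.45 (SE), and again the groups overlapped. Without WT 2 the differences were -0.90 for Rmrp, -0.66 for Rny3 and -1.02 for Vaultrc5. With so few reads, counting error is part of the spread of both RNAs.

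**Figure D1:**
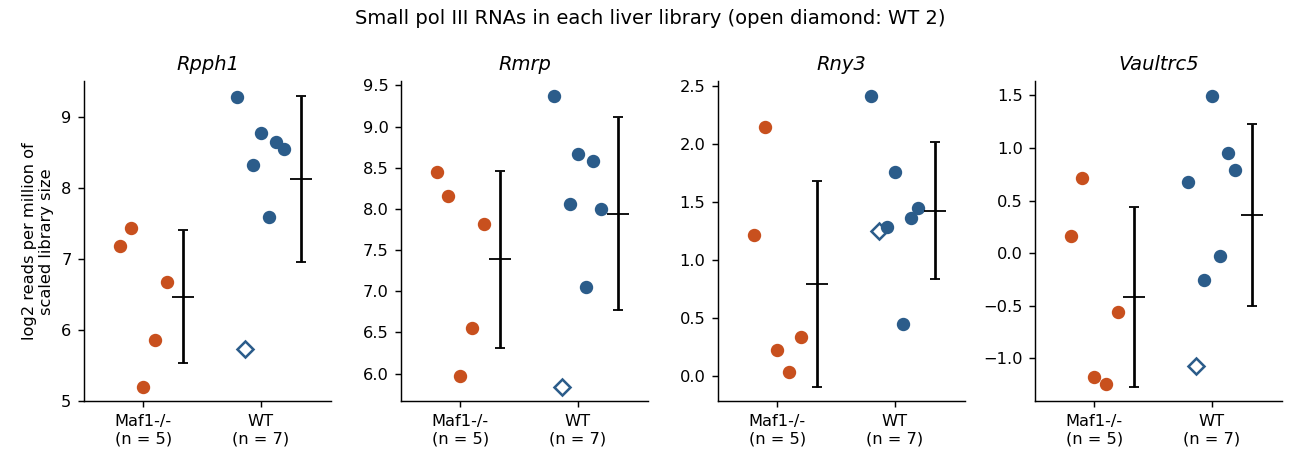
Log2 CPM of the 4 RNAs in each library, Maf1-/- (n = 5) left of WT (n = 7), with the mean ± SD beside each group. Apart from WT 2 (open diamond, 5.73), every WT value of Rpph1 is above every Maf1-/- value, while the groups overlap for the other RNAs.

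Per length of gene, the order of the 4 by mean level was Rmrp, Rpph1, Rny3 and Vaultrc5 in both genotypes. In reads per kilobase of gene and per 1000000 reads of scaled library size, Rmrp averaged 750 ± 452 and Rpph1 324 ± 180 in Maf1-/- livers (SD, n = 5), against 1144 ± 739 and 1078 ± 571 in WT livers (SD, n = 7). By the median the first pair was the other way round in WT livers, with Rpph1 at 1172 and Rmrp at 985. Within libraries, on the log2 scale per length, Rpph1 was below Rmrp in 5 of 5 Maf1-/- libraries, at -1.15 ± 0.26 (SD), and in 4 of 7 WT libraries, at -0.04 ± 0.27 (SD), so these neighbours differed beyond their spread in Maf1-/- and not in WT livers. Rny3 averaged 20.03 ± 14.1 in Maf1-/- and 28.3 ± 12.2 in WT livers, and Vaultrc5 6.03 ± 3.64 in Maf1-/- and 10.4 ± 5.53 in WT livers, on the same scale, and Vaultrc5 was below Rny3 in every library. How fully the libraries recover RNAs this short was not tested.

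The 4 RNAs varied together from library to library, and along the GC slope. The 3 libraries of lowest slope, WT 2 and Maf1-/- 3 and 4, were also the 3 lowest in Rpph1, in Rmrp and in Vaultrc5, and 2 of them were among the 3 lowest in Rny3. For Rpph1, the 6 libraries lowest in slope were the 6 lowest in level. These were the 5 Maf1-/- libraries and WT 2, so this match cannot be told apart from genotype. Over the 12 libraries, with group means removed, Pearson's r was 0.97 between Rpph1 and Rmrp, 0.86 between Rpph1 and Vaultrc5 and 0.63 between Rpph1 and Rny3. These points share depth and base composition, and r is given as a description.

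**Figure D2:**
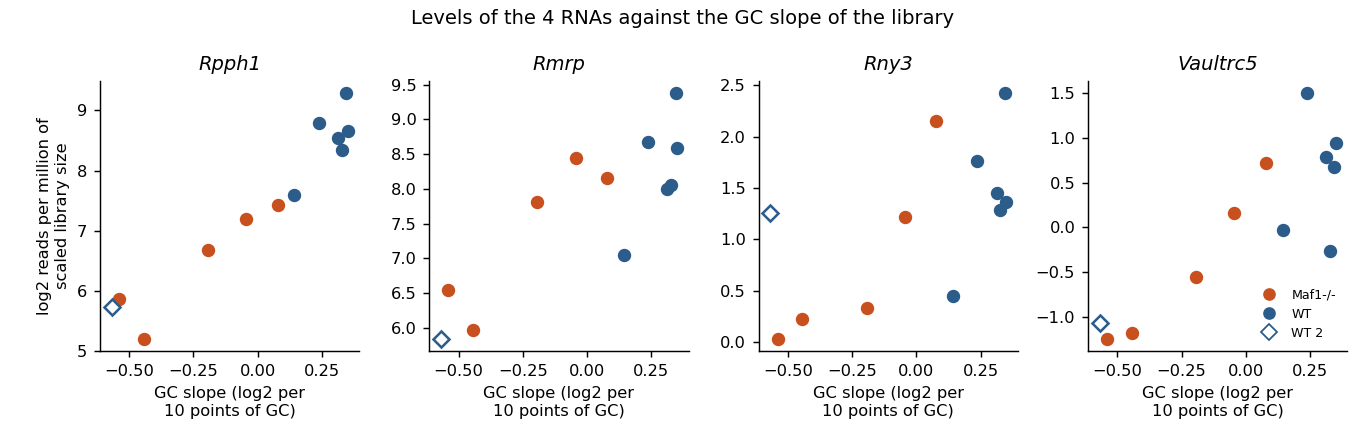
Log2 CPM of each RNA (y) against the GC slope of the library (x, log2 per 10 points of GC), with Maf1-/- and WT libraries in different colours and WT 2 as an open diamond. WT 2, at a slope of -0.57, sits with Maf1-/- libraries 3 and 4 in Rpph1, Rmrp and Vaultrc5.

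The size of the difference between genotypes depended on how this slope was treated. After a trend on GC content and gene length was taken out of each library, the log2 differences were -1.004 for Rpph1, 0.03 for Rmrp, -0.46 for Rny3 and -0.44 for Vaultrc5. The corrected Rpph1 values averaged 7.03 ± 0.42 in Maf1-/- (SD, n = 5) and 8.03 ± 0.41 in WT (SD, n = 7), and Maf1-/- libraries, at 6.30 to 7.30, then lay below all WT libraries, WT 2 included, at 7.39 to 8.72. After the correction, 0.561% of 12482 genes were lower in Maf1-/- without overlap. With the GC slope as a covariate the differences were -0.34 ± 0.25 for Rpph1, 0.73 ± 0.37 for Rmrp, -0.15 ± 0.42 for Rny3 and 0.12 ± 0.34 for Vaultrc5 (SE). The slope differs between the genotypes, so the part of it in these differences cannot be told apart from genotype. Among 15 other genes within 1.5 points of the GC content of Rpph1, the median log2 fold change was -0.63, and 1 was below Rpph1. Among 79 such genes for Rmrp the median was -0.61, and 45 were below Rmrp. For the other RNAs the genes of like GC content sat higher: among 1958 such genes for Rny3 the median was 0.13 and 18 were below Rny3, and among 1929 for Vaultrc5 the median was -0.22 and 72 were below Vaultrc5.

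**Figure D3:**
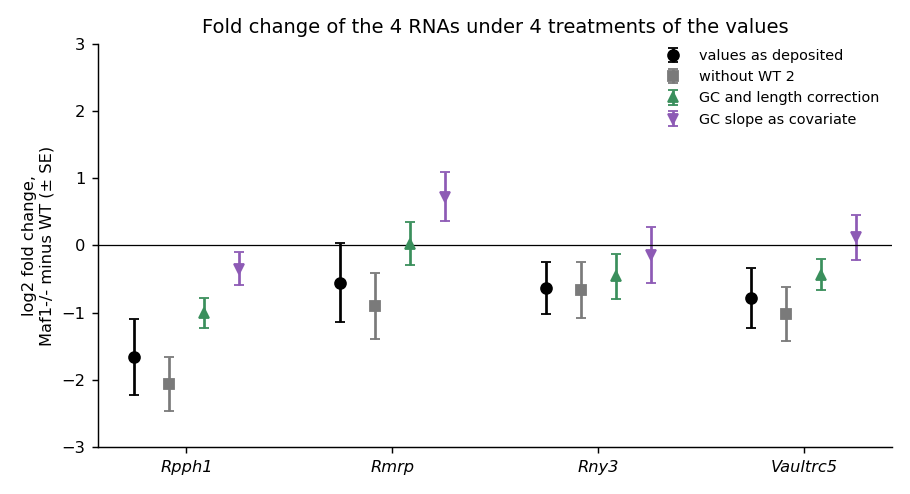
Log2 fold change, Maf1-/- minus WT, with its SE for the 4 RNAs, from the deposited values, with WT 2 left out, with GC and length trends removed, and with the GC slope as a covariate. Rpph1 stays below 0 in all 4 (-1.66, -2.06, -1.004 and -0.34), while Rmrp is at 0.03 after the correction and 0.73 with the covariate.

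A difference between 2 RNAs of the same library is free of the library's scaling. The log2 value of Rpph1 minus that of Rmrp, RNAs of like length and GC content, ran between -1.25 and -0.69 in Maf1-/- libraries and between -0.11 and 0.54 in WT libraries, without overlap. The means were -0.91 ± 0.26 in Maf1-/- (SD, n = 5) and 0.19 ± 0.27 in WT (SD, n = 7), a difference of -1.10 ± 0.16 (SE). WT 2, which sat with the Maf1-/- libraries in the level of both RNAs, had -0.11, beside -0.09 in the nearest WT library. Leaving out any 1 library gave differences between -1.16 and -1.02, and the GC and length correction gave -1.03. Of the 6 pairs among the 4 RNAs this was the 1 whose groups did not overlap. Rpph1 minus another gene was lower in Maf1-/- without overlap for 0.195% of the 13303 other genes. Those genes are of any length and GC content, unlike Rmrp, and the share among genes like Rpph1 was not computed. The comparison of Rpph1 with Rmrp was chosen after the values were seen.

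The other pairs overlapped between genotypes. Rpph1 minus Rny3 averaged 5.68 ± 0.55 in Maf1-/- (SD, n = 5) and 6.71 ± 0.99 in WT (SD, n = 7), and Rpph1 minus Vaultrc5 averaged 6.89 ± 0.35 in Maf1-/- and 7.77 ± 0.66 in WT. In both, WT 2, at 4.48 and 6.80, was the 1 WT library that did not lie above all Maf1-/- libraries. For Rmrp minus Rny3, Rmrp minus Vaultrc5 and Rny3 minus Vaultrc5, the differences between genotypes were 0.08, 0.23 and 0.15, each below its SE of 0.47, 0.35 and 0.32. Without WT 2 they were -0.24, 0.12 and 0.36, and leaving out any 1 library gave -0.24 (without WT 2) to 0.29 for Rmrp minus Rny3, so its sign is not firm. The differences for Rpph1 minus Rny3 and Rpph1 minus Vaultrc5 were -1.02 and -0.87 with WT 2, and -1.39 and -1.03 without it.

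**Figure D4:**
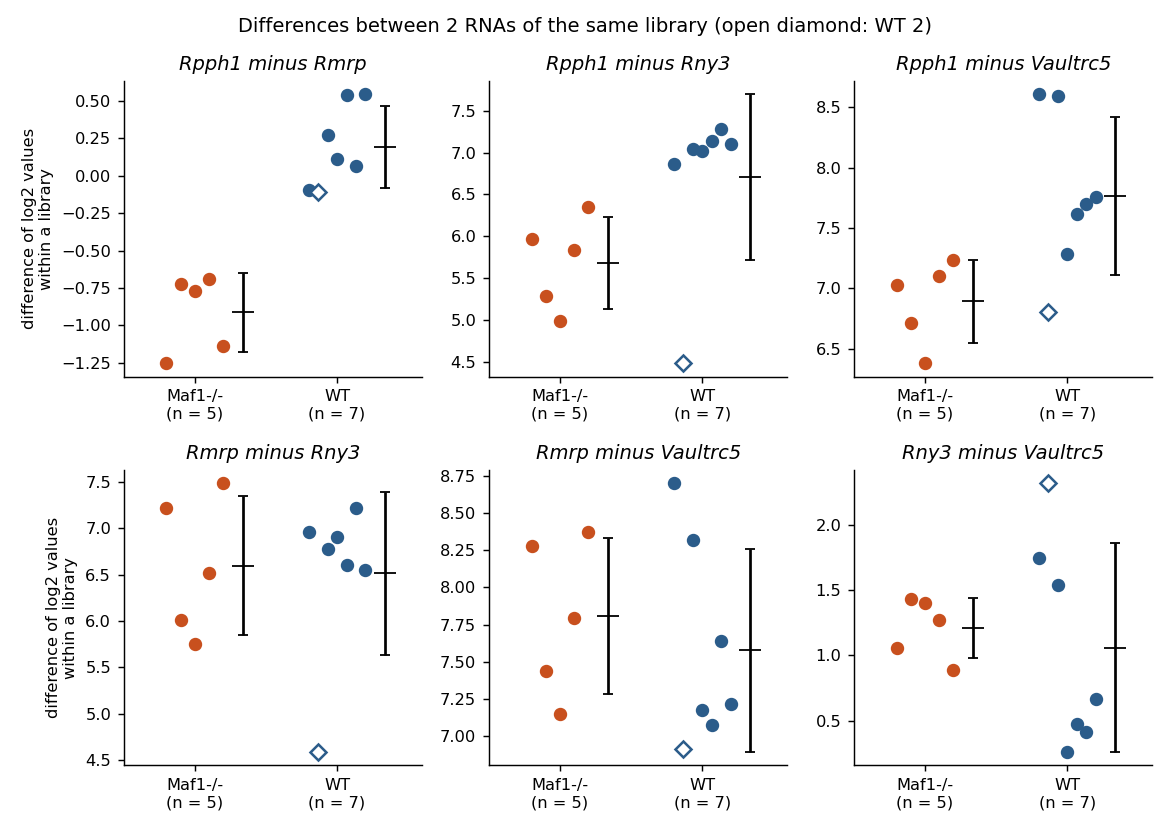
Difference between the log2 values of 2 RNAs in the same library for all 6 pairs, Maf1-/- (n = 5) left of WT (n = 7), with the mean ± SD; the open diamond is WT 2. Only Rpph1 minus Rmrp separates the genotypes, with Maf1-/- at -1.25 to -0.69 and WT at -0.11 to 0.54.

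In the pol III score table, whose values are labelled as liver RNA-seq scores, the same 4 loci were higher in Maf1-/- than in WT. Rpph1 scored 21646 in Maf1-/- and 10824 in WT, Rmrp 37580 in Maf1-/- and 18867 in WT, Rny3 2418 in Maf1-/- and 643 in WT, and Vaultrc5 2225 in Maf1-/- and 873 in WT. The scores in Maf1-/- over WT were thus 2.00 for Rpph1, 1.99 for Rmrp, 3.76 for Rny3 and 2.55 for Vaultrc5. With 1 value per genotype there is no replicate check, and how the scores were made is not given in the sources used here. Of 505 loci above 0 in both genotypes, 473 (93.7%) were higher in Maf1-/-, with a median ratio of 2.52, so a ratio above 1 was the rule in this table. Divided by that median, the ratios were 0.79 for Rpph1, 0.79 for Rmrp, 1.49 for Rny3 and 1.01 for Vaultrc5.

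As deposited, the 2 tables had opposite signs at these loci, but the sign per library was not firm for all of them: Rmrp was at -0.55 ± 0.59 (SE), at 0.03 after the GC and length correction and at 0.73 with the GC slope as a covariate, where Vaultrc5 was at 0.12. The mean count per library in Maf1-/- over that in WT was 0.27 for Rpph1, 0.58 for Rmrp, 0.63 for Rny3 and 0.53 for Vaultrc5. Against the reads of all libraries of a genotype together, the scores had no single relation. In Maf1-/- the scores of Rpph1, Rny3 and Vaultrc5 were above the summed 19661, 388 and 162 reads, and that of Rmrp was below its 38736. In WT the scores of Rpph1, Rmrp and Rny3 were below the summed 103512, 93946 and 869 reads, and that of Vaultrc5 was above its 425. Rny1, the Y RNA gene 6343 bases from Rny3, was also in both tables, with scores of 310 in Maf1-/- and 159 in WT and a log2 fold change of -0.41 ± 0.44 (SE) per library.

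**Figure D5:**
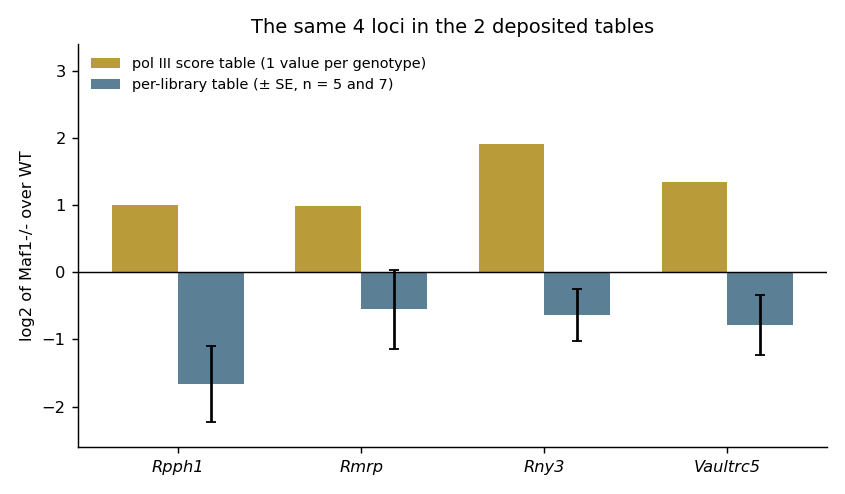
Log2 of Maf1-/- over WT for the 4 loci in the pol III score table (RNA-seq scores, 1 value per genotype, no error) and in the per-library table (± SE, n = 5 and 7). All 4 bars are above 0 in the scores (ratios of 1.99 to 3.76) and below 0 in the per-library values (-1.66 to -0.55).

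None of the proteins that bind these RNAs, or make them, passed the test as reported, as was the case for nearly all genes. A gene was called at an adjusted p under 0.01 with limma and an absolute log2 fold change above 0.5, which 2 of 13304 genes (0.015%) reached, Maf1 and Gm35339. Unadjusted p was under 0.05 for 23.1% of all genes, and the median log2 fold change of all genes was -0.02. The number of calls depended on WT 2 and on the fit. Without WT 2, 904 of 13304 genes were called, 209 higher and 695 lower in Maf1-/-. The GC slopes then did not overlap, at -0.54 to 0.08 in Maf1-/- and 0.14 to 0.35 in WT libraries. These calls therefore cannot be told apart from the slope. With WT 2 kept, the alternative fits given at the end called 0 to 2019 genes. In the lists below, the 904 included 2 of 10 RNase P and MRP proteins (lower) and 1 of 15 Y RNA binding proteins (higher). They also included 2 of 10 type 3 promoter factors (higher) and 3 of 26 trimming genes (2 higher, 1 lower). Of the rest, 2 of 27 other small noncoding RNAs (1 higher, 1 lower) and 1 of 25 neighbours (lower) were called. Called were 0 of 5 vault genes and 0 of 7 type 2 factors. Whether any list differs from all genes was not tested.

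Of 10 measured protein subunits of RNase P and RNase MRP, 0 were called and 3 reached an unadjusted p under 0.05. The median log2 fold change was 0.08, and 0.03 after the GC and length correction. Rpp25l averaged 2.08 in Maf1-/- and 2.88 in WT livers, Pop7 1.22 and 2.02, and Rpp21 1.56 and 2.08, in the same order and on the log2 scale, with adjusted p of 0.205, 0.210 and 0.215 from limma. Rpp30, another subunit, averaged 2.93 in Maf1-/- and 2.55 in WT livers. The GC content was 59.2% for Rpp25l, 56.9% for Pop7, 55.7% for Rpp21 and 40.1% for Rpp30. Of the 10 subunits, 4 had a negative log2 fold change, the sign that Rpph1 had.

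Of 15 Y RNA binding proteins, 0 were called and 5 had an unadjusted p under 0.05, all with a positive fold change. The GC content of these 5 was 37.8% (Ssb) to 41.5% (Fip1l1). Mov10 and Cpsf1, at 57.0% and 56.5%, had log2 fold changes of -0.58 and -0.33, and 7 of the 15 were negative. The median log2 fold change was 0.12, and 0.06 after the GC and length correction. The part of GC content was not tested. The 4 of smallest p were Matr3, Trove2 (the Ro60 protein), Syncrip and Fip1l1, with log2 fold changes of 0.46, 0.39, 0.35 and 0.31 and adjusted p of 0.192 to 0.198 from limma. Of 5 genes for proteins of the vault particle or proteins acting on vault RNA (the vault genes), 0 were called and 0 had an unadjusted p under 0.05. Nsun2 and Srsf2 are of the second kind. Mvp, the major vault protein, averaged 4.32 in Maf1-/- and 5.01 in WT livers (log2 fold change -0.69 ± 0.35, SE), and Srsf2, Parp4 and Tep1 had log2 fold changes of -0.22, 0.23 and -0.32.

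Of 10 factors of type 3 promoters, 0 were called and 5 had an unadjusted p under 0.05. Brf2, the TFIIIB subunit of these promoters, averaged 1.87 in Maf1-/- and 2.38 in WT livers (log2 fold change -0.51 ± 0.15, SE, adjusted p = 0.192 with limma). The SNAPc subunits Snapc3 and Snapc2 had log2 fold changes of 0.57 and -0.39, and Bdp1, shared by all pol III promoters, one of 0.50. The GC content was 38.8% for Snapc3 and 58.2% for Snapc2. Of 7 factors of type 2 promoters, 0 were called and 3 had an unadjusted p under 0.05. The TFIIIC subunits Gtf3c5, Gtf3c6, Gtf3c3 and Gtf3c2 had log2 fold changes of -0.38, 0.41, 0.30 and -0.26. Of 26 genes that act on the ends of small RNAs (the trimming genes), 0 were called and 8 had an unadjusted p under 0.05. Most act at the 3′ end, while Xrn1, Xrn2 and Mepce act at the 5′ end. Zcchc7, of the TRAMP complex, the uridylyl transferase Zcchc11, the exonuclease Toe1 and the exosome subunit Exosc4 had log2 fold changes of 0.52, 0.42, -0.31 and -0.51.

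The other small noncoding RNAs of the table were set beside the 4. Of 27 such rows, mostly snoRNAs, scaRNAs and miRNA genes, 20 had a negative log2 fold change, the median was -0.54 (-0.26 after the GC and length correction), 0 were called with limma and 4 had an unadjusted p under 0.05. Those 4 were Mir27b, Snora78, Mir703 and Snord118, with log2 fold changes of 1.17, -2.16, -0.93 and -1.36 and an adjusted p of 0.192 each with limma. The 3 of highest level had log2 fold changes of -0.03 ± 0.20 for Snord17, -0.77 ± 0.54 for Snora73b and -0.22 ± 0.19 (SE) for Mir22hg, a miRNA host gene, none with an unadjusted p under 0.05.

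The genes beside the 4 loci were not called. Of the 25 measured neighbours, 0 were called with limma and 3 had an unadjusted p under 0.05. Parp2, which starts 178 bases from Rpph1 on the other strand, averaged 3.57 in Maf1-/- and 3.45 in WT livers (log2 fold change 0.12 ± 0.14, SE), and Ttc5, on the other side, had a log2 fold change of -0.18. Ccdc107, Cd72 and Tpm2 about Rmrp had log2 fold changes of -0.35, -0.27 and -0.13, and Ezh2 beside Rny3 one of 0.16. Zmat2 and Pcdhb14 beside Vaultrc5 had log2 fold changes of -0.06 and 0.13.

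The genes whose values ran most like those of each RNA over the 12 libraries were named by Pearson's r. For Rpph1 they were Cox6a1, Fkbp8 and Szrd1 (r of 0.99, 0.98 and 0.98), and for Rmrp they were Rpl29, Gadd45gip1 and Acot7 (r of 0.96 each). For Rny3 they were Bmyc, Rny1 and Gm25117 (r of 0.88, 0.87 and 0.85), of which Rny1 is the other Y RNA. For Vaultrc5 they were Des, Rnaseh2c and Tspan4 (r of 0.91 each). Of these 12 genes, 11 had a GC content above the median of 49.5% over all genes. All 12 pairs share the depth and GC slope of the same libraries, and r is a description of likeness only.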

How the data were processed

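Total RNA of perfused livers was sequenced after removal of ribosomal and globin RNA. Reads were trimmed with cutadapt 1.8, aligned by the authors with STAR 2.5.2b to GRCm38 and counted per gene with HTSeq 0.6.1, and library sizes were scaled with edgeR 3.14.0. The deposited table holds log2 values made by the authors. Its name reads RPKM, yet 100% of the 159648 values returned whole reads (within 0.001) plus 0.5 over a scaled library size, with no division by length. The deposited pol III table holds 1 RNA-seq score per locus and genotype, made by the authors in a way not given in the sources used here, and was not tested.

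Tests of Maf1-/- against WT ran over all genes in limma 3.58.1 (R 4.3.3) (two-sided, Benjamini-Hochberg). The fit was also run on simulated data with independent noise per gene. Those data lack the GC slope that genes of a library share, so they cannot show how the test does under it. The authors also used factors of unwanted variation; here these are an alternative. GC content came from the mm9 annotation for 93.8% of genes, and a loess trend (span 0.4) was removed from each library. Members and gene lists were chosen with earlier results of these data known. Genes named are the 4 RNAs, the called genes, up to 4 of smallest p per list, the nearest neighbours, and the 3 of highest r with each RNA; of the small noncoding rows also the 3 of highest level. Depth limits Rny3 and Vaultrc5, with 37 to 273 and 15 to 100 reads. Counting error alone is covered by such counts.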

Additional observations from a re-analysis of the deposited data

Results flagged for a closer look

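In 26 sets of values per group, 4 values lay far from the rest of their group, and chance gives about 1 in 20. WT 2 lay apart in the log2 value of Rpph1 minus Rny3 (4.48), in that of Rmrp minus Rny3 (4.59) and in the GC slope (-0.57 per 10 points of GC). WT 1 lay apart in its reads in listed genes (55787438). The cause of these values was not tested.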

How the results depend on the processing

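The log2 fold changes of Rpph1 and Rny3 were below 0 under every alternative run for them; those of Rmrp and Vaultrc5 were not. With the GC slope of the library as a covariate, chosen after seeing the data, they were -0.34 ± 0.25 for Rpph1 and 0.73 ± 0.37 (SE) for Rmrp. In the same fit they were -0.15 ± 0.42 for Rny3 and 0.12 ± 0.34 (SE) for Vaultrc5, both smaller than their SE. Leaving out 1 library gave -2.06 to -1.34 for Rpph1, -0.90 to -0.20 for Rmrp, -0.97 to -0.44 for Rny3 and -1.07 to -0.58 for Vaultrc5. With the replicate block they were -1.47, -0.41, -0.64 and -0.58 in that order; same-numbered libraries had deviations correlated at -0.46 to 0.23 and no Maf1-/- library was most like its own number, so the numbers do not pair the samples.

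Of all genes, 2 were called as reported, 1 with the GC correction, 1 with the GC slope covariate, 1 with the replicate block, 0 with the replicate block and GC correction, 2019 with library weights, 1076 with 1 factor of unwanted variation, 127 with 1 factor after the GC correction and 2104 with 1 factor without WT 2 (the last 2 and the covariate added after seeing the data). Leaving out 1 library gave 2 to 904, the highest without WT 2. The cause was not tested.

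Library weights, which called 2019 of all 13304 genes, gave calls in the lists, where 0 were called as reported. They called 4 of 10 RNase P and MRP proteins, 3 of 15 Y RNA binding proteins and 1 of 5 vault genes. Next came 3 of 10 type 3 and 1 of 7 type 2 promoter factors, 4 of 26 trimming genes, 7 of 27 small noncoding RNAs and 2 of 25 neighbours. With 1 factor, which called 1076 of all genes, the counts were 2, 1, 1, 1, 0, 3, 2 and 2 in that order. With 1 factor without WT 2, which called 2104 of all genes, they were 3, 4, 1, 3, 0, 4, 6 and 3. With 1 factor after the GC correction 1 small noncoding RNA was called, beside 127 of all genes. Leaving out 1 library gave 0 to 2, 0 to 1, 0 to 0, 0 to 2, 0 to 0, 0 to 3, 0 to 2 and 0 to 1, the highest without WT 2, where 904 of all genes were called. Divided by the median ratio, the scores in Maf1-/- over WT were 0.79 for Rpph1, 0.79 for Rmrp, 1.49 for Rny3 and 1.01 for Vaultrc5. Depth limits Rny3 and Vaultrc5.

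Signs also changed for named genes that were not called. With the GC slope covariate the log2 fold changes were 0.0312 for Ttc5, -0.12 for Parp2, 0.0118 for Cd72, 0.15 for Tpm2, 0.11 for Rny1, -0.0917 for Pcdhb14, 0.20 for Snord17, 0.32 for Snora73b, 0.15 for Mvp, 0.00782 for Tep1, 0.26 for Rpl29, 0.14 for Gadd45gip1, 0.0887 for Acot7, 0.0199 for Rnaseh2c and 0.0795 for Tspan4. With the GC correction, also with 1 factor added, they were 0.19 for Tpm2, 0.20 for Snord17 and 0.13 for Acot7, and with the replicate block and GC correction 0.0616 for Cd72, 0.30 for Tpm2, -0.0313 for Pcdhb14, 0.0939 for Snord17 and 0.13 for Acot7. The replicate block gave 0.0481 for Tpm2, median centring 0.0357 for Zmat2 and 0.0735 for Snord17, and library weights 0.0164 for Snord17. Leaving out 1 library gave -0.33 to 0.14 for Tpm2 and -0.17 to 0.11 for Snord17.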
